A study of Mus musculus with 12 samples.

Results

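The measurements compared the 2 ends of an induced step of T cell development, from CD25-positive thymocytes to thymocytes that carry both CD4 and CD8 (double-positive, DP). They were the 4 DP libraries and the 4 CD25 libraries of a series of 12, taken by their sample titles. The remaining 4 libraries, of CD8 immature single-positive (ISP) cells that lie between the 2 ends, were used to separate genes that ended at another level from genes that only pulsed or dipped on the way.

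All mouse embryos lacked Rag1 and had loxP-flanked Bcl6 alleles on a C57BL/6 background. Control embryos were Rag1KO Bcl6fl/fl LckCre-, and embryos called KO here were Rag1KO Bcl6fl/fl LckCre+, in which the T lineage Lck promoter drives Cre. Presence of Cre and loss of Bcl6 therefore cannot be told apart. CD25-positive cells came from unstimulated thymi labelled embryonic day 16.5, with 2 control and 2 KO libraries. ISP cells (CD4-CD8+) and DP cells (CD4+CD8+) were sorted from thymi cultured on filters for 2 days in the presence of anti-CD3 at 1 µg/ml, again with 2 libraries per genotype and population. The treatment protocol gives day 17.5. Since no CD25 library was stimulated, the stage, the antibody and the 2 days of culture cannot be told apart. Whether the libraries within a group stem from different embryos is not stated, so p-values measure only the spread between these samples. RNA of the sex-linked genes Xist and Ddx3y, given below, differed strongly between the 2 ISP control libraries and between the 2 DP control libraries. These pairs are therefore not repeats of the same RNA. Ddx3y also differed within the CD25 pairs, though less, with 7.61 to 19.8 RPKM over the CD25 libraries. How much of the spread in these pairs and in the ISP KO and DP KO pairs is technical was not tested.

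A thymocyte that lacks Rag1 cannot rearrange its T cell receptor (TCR) genes and stays at the CD25 stage. Normally a pre-TCR, made of a rearranged TCR beta chain, the pre-TCR alpha chain and the CD3 chains, signals there and sends the cell through a burst of division. The cell then turns on CD8, passes the ISP stage, and turns on CD4. Crosslinking of CD3 stands in for that signal. DP thymocytes depend on the survival protein Bcl-xL and are the cells that are later selected on self peptides.

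Values are RPKM (reads scaled to gene length and to a factor per library) from RNA of sorted bulk cells. Fewer cells of a type and less RNA per cell therefore cannot be told apart. The median ratio of a library's genes to their geometric mean over the libraries was 1 in all 12 libraries. This scaling holds the median difference over all genes near 0, so the balance of rises and falls is in part set by it. Where 4 values are given for a population, they are control 1, control 2, KO 1 and KO 2. Differences are on the scale of log2(RPKM + 1), which understates the change of low genes, and averaged over both genotypes. They were tested with limma for the 11303 genes that reached 1 RPKM in 2 or more libraries, and p-values were adjusted by the Benjamini-Hochberg method over all of them. A gene is called higher or lower at an adjusted p under 0.05, and counts as a net change if the difference is also at least 1.

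The targeted gene, Bcl6 (chromosome 16, 23965052 to 23988852, GRCm38), is a transcriptional repressor. It was at 1.82, 1.49, 2.01 and 1.63 RPKM in CD25 cells, 11.9, 11.6, 18.9 and 25.1 in ISP cells and 72.5, 70.0, 87.7 and 111 in DP cells. It was thus not lower in KO libraries, and a value summed over the gene does not check whether the loxP-flanked part was lost. Reads assigned to Gh, growth hormone, followed the genotype labels: they were at 0 in all 6 control libraries and at 0.813 and 0.824, 1.69 and 2.93 and 5.64 and 10.8 in the KO libraries of CD25, ISP and DP cells. The name under which a library was sequenced disagrees with its title for 6 of the 8 stimulated libraries, on the population for 4 and on the genotype for 4. ISP KO 1, ISP KO 2, DP control 1 and DP control 2 carry the name of the other genotype. The titles were followed. With groups taken by library name no gene was a pulse or a dip and the net changes numbered 505 and 710. Cd4 was at 191–344 RPKM in the libraries titled DP against 13.9–20.5 in those titled ISP. Depth, as reads recovered from the RPKM steps, was 9658321 to 14228954 per library. Markers of natural killer (NK) and other innate lymphoid cells were not low and are given beside the genes they move with.

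From CD25 to DP, 4217 genes were called higher (37.3% of those tested) and 4341 lower (38.4%), so a call alone says little about a gene. A net rise of at least 1 was seen for 837 genes (7.41%) and a net fall for 1194 (10.6%). On the way, 75 genes (0.664%) rose by at least 1 at ISP and then fell by at least 1 with no net change, a pulse. The reverse, a dip, was seen for 39 genes (0.345%). For 63 of the 75 pulse genes and 35 of the 39 dip genes the 95% interval of the DP minus CD25 difference lay within 1 of 0. In the other 12 and 4 the interval reached past 1 in size, so whether the net difference reached 1 was not resolved.

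**Figure D1:**
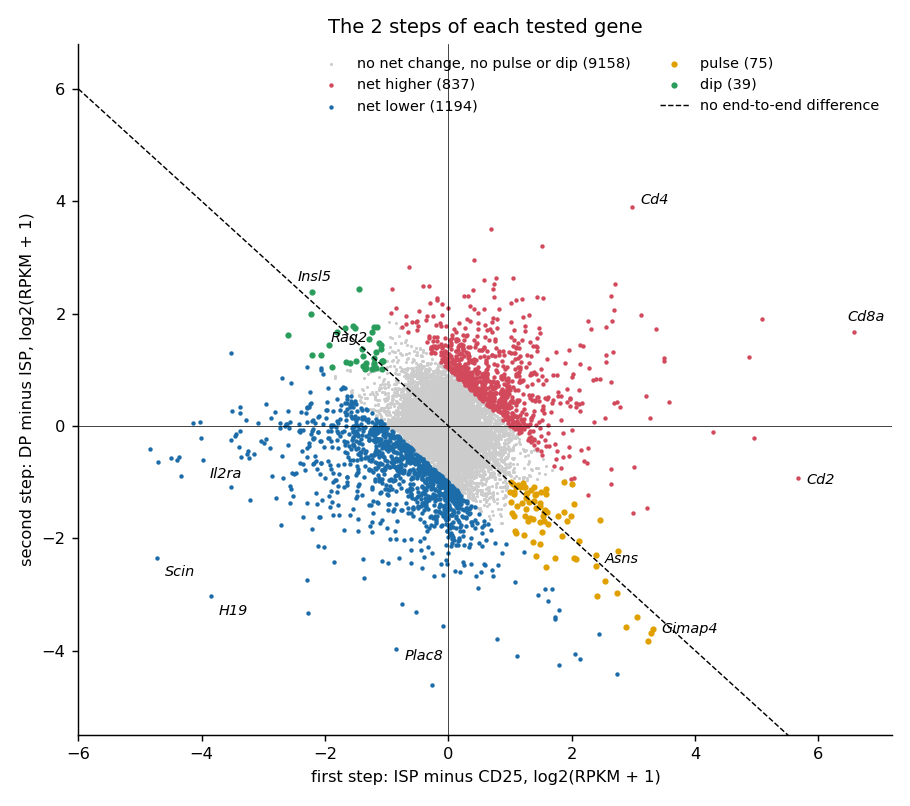
Each point is 1 of the 11303 tested genes, with the ISP minus CD25 difference on the x axis and the DP minus ISP difference on the y axis, both on the log2(RPKM + 1) scale. The ISP libraries enter both axes, so an error in them moves a point along the dashed line, on which CD25 and DP are equal. Cd8a lies far right because most of its rise came before ISP, Cd4 lies at 2.97 and 3.89, and Gimap4 and Insl5 lie near the dashed line in the pulse and dip corners.

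The net changes were reached by different routes. Of the 837 genes with a net rise, 191 made a called step of at least 1 only before ISP, 239 only after it, 72 at both steps, and 331 reached 1 only when the steps were added. Of the 1194 with a net fall these numbers were 384, 407, 69 and 316. A further 22 genes with a net change took 2 called steps of at least 1 in opposite directions, and 15 of these rose to ISP before they ended below the CD25 level. Another 475 genes had 1 called step of at least 1 but no net change and no opposite step.

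The coreceptors had the largest net rise of the genes eligible by size. Cd8a, the alpha chain of the coreceptor for MHC class I, was at 2.16, 1.76, 1.29 and 1.64 RPKM in CD25 cells, 302, 269, 232 and 230.4 in ISP cells and 873, 857, 799.6 and 774 in DP cells. Its DP minus CD25 difference was 8.26 (SE 0.060, limma adjusted p = 3.05e-16), and the 3 populations did not overlap. Cd8b1, the beta chain, gave 18.9, 16.7, 14.6 and 18.5, then 703, 715, 554 and 520.1, then 2506, 2495, 2274 and 2042 RPKM (difference 7.00, SE 0.068, adjusted p = 5.28e-15). Cd4, the coreceptor for MHC class II, was at 1.53, 1.03, 1.16 and 1.78 RPKM in CD25 cells, 17.4, 18.8, 13.9 and 20.5 in ISP cells and 344, 338, 249 and 191 in DP cells (difference 6.86, SE 0.13, adjusted p = 7.56e-13). The sorts of ISP and DP cells used these proteins, so the coreceptor values check the gates and are no finding. Of the rise of Cd8a, 6.58 of 8.26 came before ISP, while for Cd4 it was 2.97 of 6.86.

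The chains of the receptor complex went different ways. Among the 5 tested, 1 had a net rise and 2 a net fall. Ptcra, the pre-TCR alpha chain, fell from 778, 850.4, 730.2 and 761 RPKM in CD25 cells to 268, 211, 235 and 211 in ISP cells, and was at 275, 242, 322 and 293 in DP cells (DP minus CD25 -1.47, SE 0.076, adjusted p = 3.37e-09). Cd3g fell at the first step and regained part of it, with 2722–2839.5 RPKM in CD25, 947–967 in ISP and 1226–1314 in DP libraries. The signalling chain Cd247 (CD3 zeta) rose instead, from 48.2, 49.3, 45.5 and 44.8 to 64.5, 66.5, 60.9 and 59.3 to 151, 147, 134 and 122 RPKM (difference 1.54, SE 0.042, adjusted p = 1.28e-11). Cd3e and Cd3d fell at ISP, with differences from CD25 of -0.83 and -0.45, and rose after it. At DP, Cd3e lay -0.26 and Cd3d lay 0.026 from its CD25 level (95% interval -0.054 to 0.11).

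The enzymes and adaptors that relay a TCR signal mostly rose. Of 20 listed genes 11 had a net rise and 1 a net fall, Cblb, a ubiquitin ligase that restrains TCR signalling (difference -2.73). Their median difference was 1.11, against -0.0054 over all tested genes, a value that the scaling holds near 0. Zap70, the kinase that binds phosphorylated CD3 chains, was at 5.81, 5.82, 5.97 and 5.00 RPKM in CD25 cells and had reached 42.4, 37.0, 43.0 and 51.1 at ISP and 59.4, 56.8, 56.0 and 60.7 at DP. Sla, an adaptor that dampens receptor signalling, rose at both steps, with 21.1–26.5, 135–147 and 305–321 RPKM in the 3 populations. Rasgrp1, which activates Ras downstream of the receptor, went from 11.2–15.8 to 50.9–55.1 to 99.0–136. Lck, the kinase carried by the coreceptors, was already at 1095–1287 RPKM in CD25 cells and gained only 0.64 (SE 0.051). Themis, which sets the threshold of TCR signals in DP cells, rose after ISP, from 45.3–58.8 and 43.2–58.0 to 98.01–152. Both were outside the rule for named genes and chosen after their values were seen.

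Genes that respond to receptor signals did not share 1 course. Of 18 tested members 5 had a net rise and 1 a net fall, and the list's median was 0.81 at ISP and 0.63 at DP. Id3, an inhibitor of E proteins, was at 5.26, 4.42, 7.89 and 5.07 RPKM in CD25, 197, 215, 207 and 191 in ISP and 190.5, 197, 154 and 156 in DP cells. Nfkbia, the NF-κB inhibitor, rose at both steps, from 26.2–28.1 through 115–129 to 249–281 RPKM. Fos, a subunit of AP-1, rose mainly before ISP (2.02–6.29, 18.2–21.2 and 22.5–33.9). Nr4a1, an orphan nuclear receptor and an early response gene, overshot: it was at 0.422, 0.382, 1.07 and 0.300 in CD25, 10.5, 8.90, 11.0 and 28.2 in ISP and 4.22, 5.22, 3.80 and 3.40 in DP libraries. The ISP value of KO 2 was the highest of the 12, and ISP and DP libraries did not overlap.

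Of 20 tested accessory surface receptors 9 had a net rise and 4 a net fall, and 14 were called higher at ISP (33.1% of all tested genes were). Cd6, a scavenger-type receptor on T cells, was at 0.758, 0.595, 0.968 and 0.662 RPKM in CD25 cells, 50.2, 52.2, 44.8 and 54.1 at ISP and 139.5, 149, 106 and 91.9 at DP (difference 6.11, SE 0.079, adjusted p = 4.1e-14). Cd2, an adhesion receptor, peaked at ISP with 105–129 RPKM, against 0.975–1.73 in CD25 and 49.6–77.8 in DP cells. The costimulatory receptor Cd28 reached its level by ISP (9.36–10.9, 60.4–67.4 and 59.5–82.6 RPKM). Ly6a (Sca-1) fell at both steps, from 144, 153, 227 and 198 to 29.4, 26.9, 54.8 and 35.3 to 2.94, 2.61, 6.71 and 6.61 RPKM.

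Genes of the CD25 stage were lost. None of the 16 tested members rose, all 16 were called lower (38.4% of all tested genes were), and 14 had a net fall (10.6%). The median was -2.05 at DP, most of it (-1.75) reached at ISP. Il2ra encodes CD25 itself, which the sort used. It was at 538, 538, 603 and 564 RPKM in CD25 cells, 29.9, 24.2, 43.3 and 44.7 in ISP cells and 33.0, 24.3, 21.1 and 14.5 in DP cells. Hes1, a repressor induced by Notch, fell at both steps, from 163, 146, 212 and 169.7 to 24.9, 23.5, 27.1 and 25.6 to 6.81, 3.89, 8.98 and 8.33 RPKM (difference -4.48, SE 0.12, adjusted p = 1.17e-11). Of the receptors, outside the rule for named genes, Notch1 was at 94.5–117 RPKM in CD25 and 41.7–48.3 in DP cells, and Notch3 at 43.4–53.0 and 13.6–16.5. Scin, an actin-severing protein, fell furthest among the eligible genes: 243, 228, 275 and 286 RPKM in CD25, 4.17, 6.64, 13.7 and 14.9 in ISP and 1.27, 0.901, 1.76 and 0.140 in DP libraries (difference -7.07, SE 0.21, adjusted p = 3.02e-11). Mpzl2, a cell adhesion protein, and Fbp1, an enzyme of gluconeogenesis, were lost before ISP. Mpzl2 went from 201–229 to 6.19–11.8 and Fbp1 from 85.7–117 to 2.15–5.77 RPKM, and the ISP and DP libraries of each overlapped.

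Other genes with a large net fall were lost with them. Pld4, an endolysosomal nuclease, went from 475–569.8 to 11.3–27.5 to 10.1–16.9 RPKM, and Myl10, a myosin light chain, from 252, 207, 229 and 242 to 6.69, 8.68, 12.4 and 15.4 to 4.20, 3.14, 12.9 and 10.9. Rab44, a large Rab GTPase, fell at both steps, from 47.8–51.7 to 2.74–4.57 to 0.858–1.48 RPKM.

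Regulators of earlier progenitors fell too. All 11 tested members were called lower (38.4% of all tested genes were), 9 of them with a net fall. Mycn, a Myc family factor, went from 15.7–21.5 to 2.44–4.93 to 2.05–3.85 RPKM. The receptor tyrosine kinase Kit went from 11.0–11.6 to 3.08–4.73 to 0.853–1.79 RPKM, and the transcription factor gene Erg from 2.85–4.20 to 0.109–0.286 to 0–0.0709. Nfe2, a bZIP factor of blood progenitors, was at 10.1–13.6, 2.56–6.64 and 0.374–0.753. The imprinted RNA H19, high in fetal tissue, fell at both steps, with 461, 608, 489 and 442 RPKM in CD25, 34.9, 34.7, 33.1 and 31.7 in ISP and 3.90, 2.68, 3.47 and 2.90 in DP cells (difference -6.88, SE 0.099, adjusted p = 8.34e-14). Its neighbour Igf2, a fetal growth factor, fell from 9.81–15.1 RPKM to at most 0.452 at ISP and 0.292 at DP. The imprinted cell cycle inhibitor Cdkn1c did the reverse and is given with the cell cycle genes.

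The programme of the DP stage came on, for the most part after ISP. Of 26 tested members 17 had a net rise and none a net fall, and 23 were called higher from ISP to DP (35.6% of all tested genes were). The median was 0.60 at ISP and 1.94 at DP. Satb1, a chromatin organiser, went from 46.3, 42.4, 41.7 and 46.6 to 280.1, 279, 247 and 249.9 to 668, 724, 606 and 559 RPKM (difference 3.82, SE 0.050, adjusted p = 4.43e-14). Ccr9, the receptor for the thymic chemokine CCL25, rose from 12.4, 9.44, 11.7 and 12.3 through 82.3, 108, 63.0 and 61.8 to 348, 369.6, 258 and 197. Slc6a19, an amino acid transporter, rose mainly after ISP, with 0.579–0.940, 3.72–4.29 and 35.1–57.8 RPKM. Plxnd1, a semaphorin receptor, rose only after ISP, from 3.40–3.77 and 1.96–3.28 to 17.4–23.2 RPKM. Ckb, brain-type creatine kinase, went from 1.49–1.91 to 16.9–28.7 to 71.3–109, and Glcci1, a glucocorticoid-induced transcript, from 2.15–2.44 to 19.7–21.6 to 81.8–92.5. Bcl6 rose at both steps as well, with a DP minus CD25 difference of 4.96 (SE 0.098, adjusted p = 1.17e-12), of which 2.64 was gained by ISP.

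Among 41 tested T lineage transcription factors 16 had a net rise and 3 a net fall. Ikzf3 (Aiolos), an Ikaros family factor, rose before ISP from 1.19–1.41 to 24.9–29.1 RPKM and reached 29.4–40.3 at DP. Tcf7 (TCF-1), abundant from the start, went from 322–352 to 974–1087 to 1214–1611. Runx1, outside the rule as Tcf7 is, fell from 60.1–68.3 to 20.4–24.4 and stayed at 21.1–28.4. Sox13, a factor of the γδ lineage, fell from 10.1–13.8 through 2.24–3.22 to 0.0977–0.278 RPKM. Several factors with central roles in these cells kept their level to within 1, among them Gata3, which was at 36.2 RPKM on average in CD25, 66.2 in ISP and 47.6 in DP cells.

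**Figure D2:**
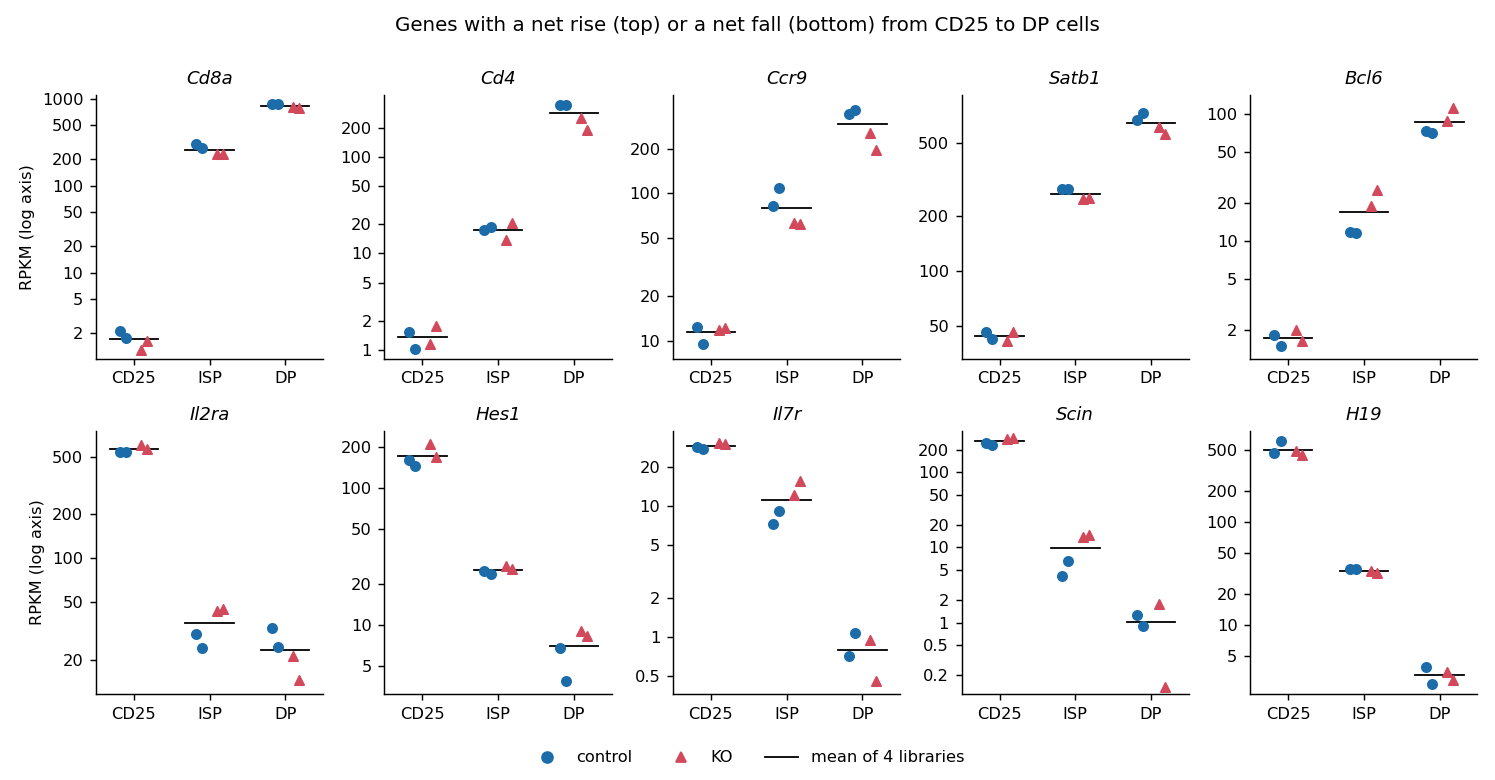
RPKM on log axes in the 12 libraries, with circles for control, triangles for KO and a line at the arithmetic mean of the 4 libraries of each population. The 5 genes in the upper row rose without overlap at each step; in the lower row the ISP and DP libraries of Il2ra overlap, whereas those of Hes1, Il7r, Scin and H19 do not.

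The 2 recombinase genes parted. Rag1 is inactivated in these mice, so its value stands for RNA of the altered locus. It was at 55.3, 52.6, 51.8 and 51.3 RPKM in CD25, 39.9, 32.04, 37.4 and 39.4 in ISP and 136, 124, 128 and 133 in DP cells, a net rise of 1.29 (SE 0.063, adjusted p = 1.98e-09). Rag2, its partner, had the course of a dip, with 126, 119, 114 and 134, then 64.7, 53.9, 56.7 and 54.4, then 155, 154, 141 and 150.4 RPKM, and ended 0.28 above CD25 (95% interval 0.14 to 0.42). Of the 15 recombination genes, 3 had a net rise and 2 a net fall. Lig4, the ligase of end joining, rose from 14.7–17.0 to 28.3–38.2 RPKM. Xrcc5 (Ku80), which binds broken ends, fell from 36.4–41.5 to 12.5–15.9, and the polymerase gene Poll from 9.20–12.1 to 0.222–1.06. Dntt, which adds bases at coding joints and is outside the rule, was at 327, 300.4, 251 and 239 RPKM in CD25, 180.0, 194, 133 and 98.9 in ISP and 393, 442, 311 and 215 in DP cells.

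Cytokine receptors were exchanged. Of 28 listed receptors and feedback genes, 8 had a net rise, 7 a net fall, 2 were pulses and 1 a dip. Il7r, the receptor for the main growth factor of early thymocytes, fell at both steps from 28.5, 27.2, 30.1 and 30.0 to 7.27, 9.16, 12.1 and 15.6 to 0.710, 1.07, 0.940 and 0.459 RPKM (difference -4.07, SE 0.11, adjusted p = 1.7e-11). The 3 chains of the interleukin 2 receptor took 3 courses: Il2ra fell, Il2rb pulsed and Il2rg, the chain shared with other cytokine receptors, rose from 221–289 to 377–384 to 509.9–573 RPKM. Il4ra went from 1.38, 1.37, 2.54 and 1.97 to 5.51, 4.98, 5.61 and 7.44 to 29.4, 30.0, 23.2 and 21.7 RPKM, and Il21r from 10.8–13.9 to 39.8–47.1 to 92.3–119. Cish, a feedback inhibitor of STAT5 signalling that falls outside the rule, fell from 8.95–10.8 to 2.10–3.91 to 0.308–0.958 RPKM.

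To set sequence beside expression, a RefSeq promoter window (250 bases before to 50 after the start, GRCm38.p6) was matched for 8512 of the 11303 tested genes and searched for 13 short motifs on both strands. The motifs named here were picked because their shares stood out, so these shares are descriptions. Stretches are printed 5′ to 3′ in the direction of the gene, in capitals where the motif lies.

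Cell cycle genes took different courses by phase. All 30 genes of G2 and mitosis were called higher in DP than in CD25 cells (37.3% of all tested genes were), although only 5 by 1 or more. Their median was 0.81 at ISP and 0.66 at DP. The 32 genes of S phase went up and down. At ISP 30 were called higher (33.1% of all tested genes were), and from ISP to DP all 32 lower (35% were). At DP 22 were called lower than in CD25 cells (38.4% of all tested genes were), 2 of them by 1 or more, and 8 higher (37.3%). Their median was 0.67 at ISP and -0.32 at DP. Mcm6, a subunit of the replicative helicase, was at 366, 366, 375 and 365 RPKM in CD25, 400.4, 429, 410.2 and 403 in ISP and 132, 134, 185 and 206 in DP cells. The E2F motif (TTT, then CCC or GGC, then GC) was in 7 of 26 promoter windows of this list (26.9%), against 3.4% of all tested genes and 1.63% of all windows. Rrm2, a subunit of ribonucleotide reductase, was the 1 with a net rise, from 213–244 through 657–764 to 477–699 RPKM. Mki67, a proliferation marker, was at 31.8–43.9 RPKM in CD25, 70.9–78.9 in ISP and 67.6–87.1 in DP cells. The DP KO libraries were above the DP control libraries for both Mcm6 and Mki67. The promoter of Mcm6 (chr1:128359771-128359850, minus strand) shows the E2F motif:
Mcm6: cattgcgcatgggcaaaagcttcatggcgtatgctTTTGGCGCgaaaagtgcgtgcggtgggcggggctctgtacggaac

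Regulators of G1 were exchanged, and 11 of 21 had a net rise and 4 a net fall. Ccnd3, the D cyclin that thymocytes need to expand after the pre-TCR signal, was at 61.0, 66.1, 64.5 and 62.7 RPKM in CD25, 383, 345, 310.0 and 314 in ISP and 627, 627, 579 and 581 in DP cells (difference 3.23, SE 0.043, adjusted p = 4.84e-14). Ccnd2, another D cyclin, fell instead, with 50.9, 60.04, 65.5 and 64.4, then 24.0, 30.9, 36.0 and 40.8, then 4.39, 3.40, 15.0 and 17.1 RPKM. Their kinase partner Cdk6 fell from 40.6–53.3 to 11.3–13.6 to 4.60–6.31. Several inhibitors of these kinases rose: Cdkn1c (p57) went from 2.33, 2.48, 2.65 and 2.95 to 23.3, 24.9, 19.5 and 14.3 to 72.5, 86.8, 61.9 and 62.5 RPKM, Cdkn2c (p18) from 3.75–5.61 to 30.2–35.1, and Cdkn2d (p19) from 51.1–56.9 to 239–253. Cdkn1a (p21), a further inhibitor, fell, from 32.6–37.6 to 7.07–9.45 to 3.00–7.15 RPKM. Ccnd2, Cdk6 and Cdkn1a were outside the rule for named genes and chosen after their values were seen.

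Among genes of survival and death more rose than fell. The list joins genes that protect cells with genes that promote death, so its counts do not measure survival. Of 20 tested members 13 were called higher in DP than in CD25 cells and 4 lower, against 37.3% and 38.4% of all tested genes. A net rise was seen for 6 and a net fall for 1, Bcl2. This gene, which protects early thymocytes, was at 12.9, 12.8, 18.4 and 16.0 RPKM in CD25, 7.33, 8.50, 11.3 and 10.9 in ISP and 3.00, 3.46, 4.39 and 4.57 in DP cells (difference -1.72, SE 0.074, adjusted p = 6.49e-10). Bcl2l1, which encodes Bcl-xL, rose from 12.9, 15.9, 13.8 and 13.6 to 61.0, 56.2, 53.9 and 58.4 to 157, 163, 142 and 131 RPKM (difference 3.31, SE 0.062, adjusted p = 8.58e-13). Mcl1, the third of these protectors, rose after ISP from 75.8–82.5 to 159–173 RPKM and ended 0.90 above CD25. Fas, the death receptor, rose at both steps, with 1.86, 1.15, 2.04 and 1.82, then 16.6, 19.6, 14.9 and 15.0, then 114, 111, 92.1 and 82.6 RPKM (difference 5.21, SE 0.088, adjusted p = 3.76e-13).

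**Figure D3:**
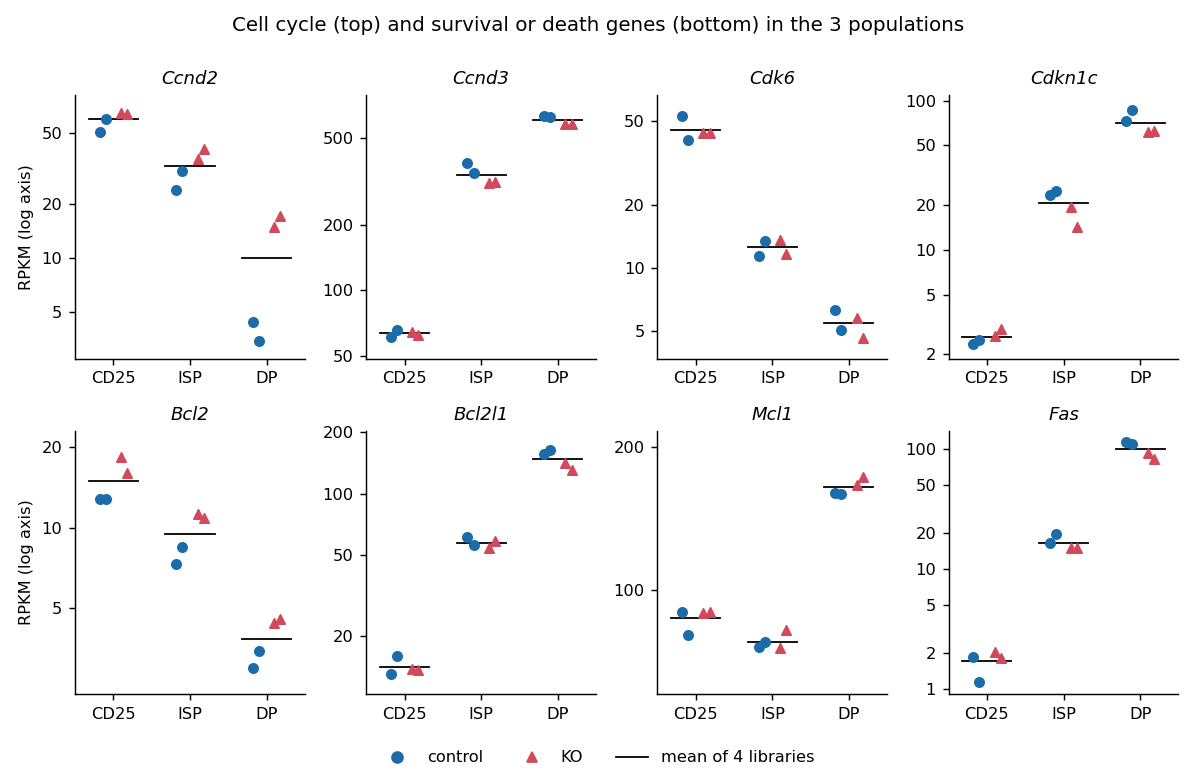
RPKM on log axes in the 12 libraries, with circles for control, triangles for KO and a line at the arithmetic mean of the 4 libraries of each population. Ccnd2 and Cdk6 fell while Ccnd3 and Cdkn1c rose, and Bcl2 fell while Bcl2l1 rose; for Ccnd2 the 2 DP KO libraries (15.0 and 17.1) lie above the 2 DP control libraries (4.39 and 3.40).

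Growth genes fell mainly after ISP. Of 25 genes of the Myc network and the nucleolus 16 had a net fall and 2 a net rise, and their median was -0.0019 at ISP and -1.31 at DP. Myc, which drives growth, was at 172, 189.8, 195 and 196 RPKM in CD25, 130.2, 138, 152 and 153 in ISP and 20.9, 18.8, 35.5 and 41.6 in DP cells (difference -2.72, SE 0.057, adjusted p = 1.81e-12). Npm1, an abundant nucleolar protein, was at 595–700.0, 599–693 and 157–221 RPKM, and Polr1b, a subunit of RNA polymerase I, at 18.97–21.9, 17.8–21.4 and 2.78–5.34. All 24 genes of cytosolic ribosomal proteins were called lower in DP than in CD25 cells (38.4% of all tested genes were). Of these, 7 fell by 1 or more (10.6% of all tested genes did). Rps2 was at 532–679.9 RPKM in CD25, 573–617 in ISP and 175–239.5 in DP cells. Of 24 translation factors and tRNA ligases 22 were called lower, 6 by 1 or more, against the same shares of all tested genes.

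The MYC E-box CACGTG was in 68 of 307 windows of genes with a net fall after ISP (22.1%), against 10.7% of all tested genes and 7.24% of all 27025 windows. It was in 8.83% of windows of genes that fell before ISP. Stretches of 2 such promoters are shown with the E-box in capitals, for Nop2, a nucleolar RNA methyltransferase (chr6:125131788-125131867, plus strand), and Cdk4, the kinase of the D cyclins (chr10:127063328-127063407, plus strand):
Nop2: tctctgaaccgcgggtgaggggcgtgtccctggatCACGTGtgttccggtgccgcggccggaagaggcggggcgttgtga
Cdk4: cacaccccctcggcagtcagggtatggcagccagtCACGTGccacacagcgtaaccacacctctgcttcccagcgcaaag
Nop2 was at 49.98, 55.2, 49.2 and 54.4 RPKM in CD25, 55.1, 60.3, 60.02 and 66.7 in ISP and 14.4, 14.3, 19.2 and 21.7 in DP cells, and Cdk4 at 484–563, 564–592 and 194–272.

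Metabolic lists moved less. None of 21 genes of oxidative phosphorylation had a net change. At ISP 19 were called higher (33.1% of all tested genes were), and from ISP to DP all 21 lower (35% were). Of 22 glycolysis genes 2 had a net rise and 2 a net fall, and of 25 genes of cholesterol synthesis and uptake none rose and 5 fell by 1 or more. Ldhb, a lactate dehydrogenase subunit, rose after ISP from 188–227 to 641–670.0 RPKM. Hmgcs1, an early enzyme of the mevalonate pathway, fell after ISP from 128–134 to 55.0–75.5.

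Interferon response genes were high in unstimulated CD25 cells and fell, mostly before ISP. Of 25 listed genes 19 had a net fall and none a net rise, 24 were called lower at ISP (30.9% of all tested genes were), and their median was -1.28 at ISP and -1.57 at DP. Oasl2, an antiviral protein of the OAS family, was at 37.0, 40.1, 56.7 and 49.4 RPKM in CD25, 2.47, 2.38, 5.86 and 6.59 in ISP and 0.424, 0.287, 1.43 and 2.45 in DP cells (difference -4.54, SE 0.11, adjusted p = 3.6e-12). Ifit1, which binds viral RNA, went from 23.1, 27.5, 35.1 and 35.2 to 3.82, 4.62, 7.97 and 8.69 to 2.63, 1.83, 4.35 and 6.66 RPKM. Ifi204, an interferon-induced DNA sensor, fell from 58.5–68.5 to 0.785–2.61 RPKM before ISP, and the membrane proteins Ifitm2 and Ifitm1 fell from 425–476 to 5.09–12.2 and from 150.2–179 to 2.60–9.55. Ifitm1 lost its level only after ISP, where it was still at 97.1–160.1.

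Most MHC class I genes fell. Of 13 tested members 7 had a net fall and none a net rise, and 3 were called higher, H2-T23, Tap2 and Cd1d1. Their median was -0.47 at ISP and -1.11 at DP. H2-K1, a classical class I heavy chain, was at 326, 385, 504 and 417 RPKM in CD25, 159.8, 168, 231 and 212 in ISP and 36.9, 32.03, 36.4 and 34.5 in DP cells (difference -3.49, SE 0.073, adjusted p = 1.73e-12). H2-D1, another heavy chain, fell from 152–229 to 71.4–92.1 to 22.6–33.5, and B2m, their shared light chain, from 2749–3356 to 1009–1229 to 417–649.6 RPKM. B2m changed by -1.45 before ISP and by -1.03 after it. H2-T23, a non-classical class I chain, went the other way, from 50.2–75.4 to 75.8–86.0 to 107–129 RPKM. H2-T23, Tap2 and Cd1d1 were chosen after their values were seen.

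The interferon-stimulated response element, searched as GAAA, 2 bases of any kind and GAAA, was in 10 of the 17 matched windows of the interferon list (58.8%). It was in 9.54% of windows of genes with a net fall before ISP, in 2.61% of those with one after it, in 3.14% of all tested genes and in 3.49% of all windows. Stretches with the element on either strand in capitals are shown for 3 genes that fell. Isg15, a ubiquitin-like protein outside the rule (chr4:156200852-156200931, minus strand), has overlapping copies, Ifit1 (chr19:34640750-34640829, plus strand) has a pair, and B2m (chr2:122147513-122147592, plus strand) has 1:
Isg15: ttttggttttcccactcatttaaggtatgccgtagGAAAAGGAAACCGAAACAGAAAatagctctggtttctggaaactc
Ifit1: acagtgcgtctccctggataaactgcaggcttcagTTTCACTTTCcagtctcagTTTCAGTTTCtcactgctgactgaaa
B2m: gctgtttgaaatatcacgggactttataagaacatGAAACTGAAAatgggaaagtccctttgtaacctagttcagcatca
Isg15 was at 125, 143, 174 and 158 RPKM in CD25, 56.3, 35.8, 91.2 and 85.7 in ISP and 39.8, 25.3, 56.6 and 64.8 in DP cells. Its ISP and DP libraries overlapped.

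**Figure D4:**
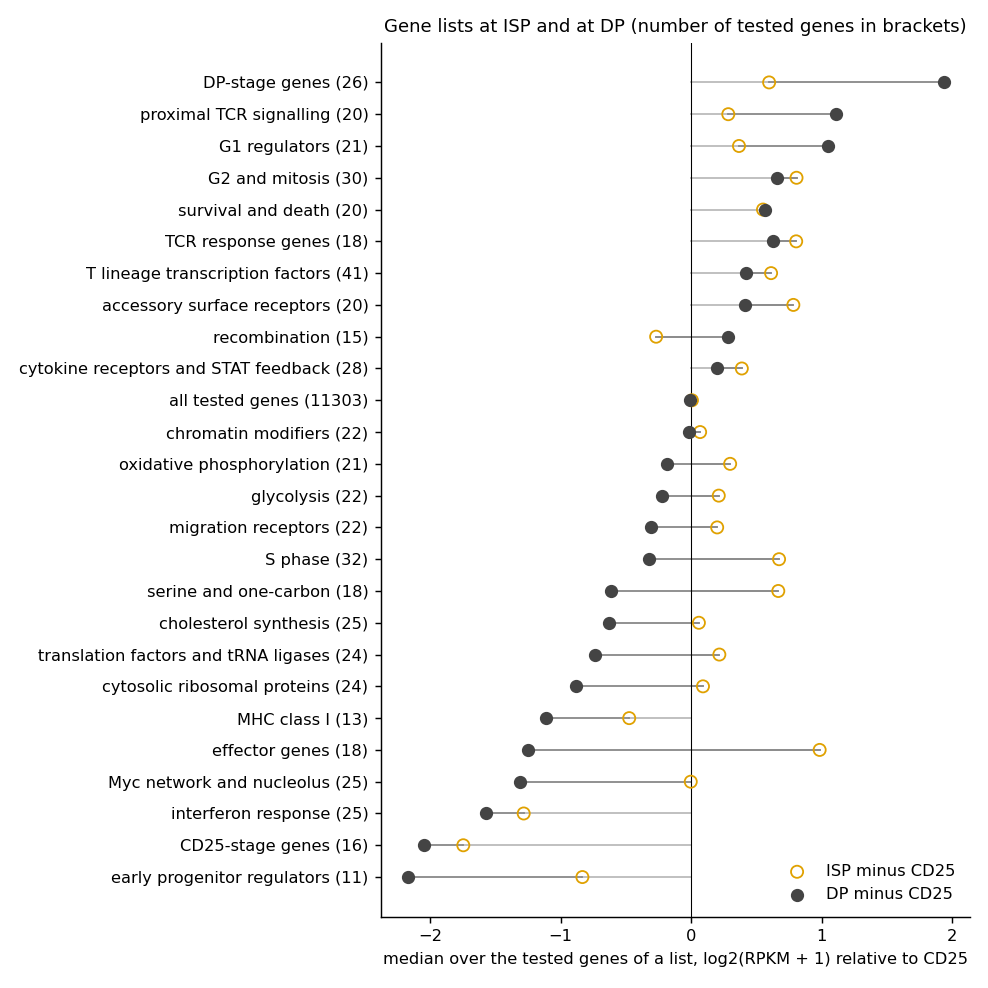
Medians over the tested genes of 25 lists and of all 11303 tested genes, as differences from CD25 on the log2(RPKM + 1) scale, with open circles for ISP and filled circles for DP. The CD25-stage and interferon lists had made most of their fall by ISP, the medians of the Myc, ribosomal and MHC class I lists fell mainly after it, and the S phase, effector and serine lists lay above 0 at ISP and below 0 at DP. The list medians share libraries and are descriptions.

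Receptors and products of NK and effector lymphocytes were among the pulse genes with the largest steps. Gimap4, a GTPase of lymphocyte survival, was at 4.00, 2.38, 4.11 and 4.36 RPKM in CD25, 36.4, 51.4, 45.3 and 48.4 in ISP and 2.41, 2.80, 2.91 and 2.91 in DP cells, with steps of 3.31 and -3.62 and an end -0.31 from the start (95% interval -0.58 to -0.030). Klrd1 (CD94), a chain of NK receptors, gave 1.45, 1.59, 1.48 and 0.859, then 16.0, 29.6, 20.8 and 22.0, then 0.548, 1.23, 1.20 and 0.243 RPKM (steps 3.28 and -3.69, adjusted p = 6.41e-08 and 1.48e-08). Its partner Klrc1 (NKG2A) gave 0.738, 0.434, 0.648 and 0.225, then 5.12, 10.4, 8.61 and 7.56, then 0.287, 0.578, 0.304 and 0. Ncr1 (NKp46), an activating receptor, was at 0.176–0.815 in CD25, 6.50–10.3 in ISP and 0–0.844 in DP libraries. Klrc1 and Ncr1 stayed under 1 RPKM in every CD25 and DP library. The filter let them in only through their ISP values, so their pulse is no separate support. Il2rb, the beta chain of the receptors for interleukins 2 and 15, was at 2.43, 1.69, 2.69 and 1.02, then 14.3, 21.6, 24.2 and 22.6, then 0.810, 1.18, 1.18 and 0.156 RPKM. The chemokine Ccl5 (0.980–3.28, 15.1–40.9 and 0.396–2.76 RPKM) and the chemokine receptor Ccr8 (0.744–1.35, 7.92–11.9 and 0.0822–0.850) did likewise. For Il2rb, Ccl5 and Ccr8 the 95% intervals of the DP minus CD25 difference reached past 1 in size. They were -1.18 to -0.21, -1.03 to 0.35 and -1.02 to -0.25. Whether a fall reached 1 was thus not resolved, and of these intervals only that of Ccl5 included 0. Genes with the largest pulses and dips were named only if no ISP library overlapped with a CD25 or DP library.

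Values of the markers of NK and innate lymphoid cells belong beside these pulses. The 16 listed markers summed to 649.6–854 RPKM in CD25, 1139–1397 in ISP and 163–285 in DP libraries. Of the 12 tested, 10 were called higher at ISP than in CD25 cells and all 12 lower in DP than in ISP cells, 5 of them pulses, against 33.1% and 35% of all tested genes. Nothing is read from this count, since Ncr1, Klrc1, Klrk1, Klrb1c and Rora stayed under 1 RPKM in every CD25 and DP library and passed the filter only through ISP. Gzma, Nkg7, Tyrobp and Fcer1g made up most of the sum. The other 12 markers, of which Gata3 was the most abundant, summed to 45.5–56.9, 96.4–136 and 47.6–55.8 RPKM in the 3 populations, and every ISP library stood above every CD25 and DP library. Defining markers of NK cells were low but moved in the same way. Klrb1c (NK1.1) was at 0–0.139 RPKM in CD25, 2.67–5.80 in ISP and 0–0.295 in DP libraries. Eomes, a factor of mature NK cells that was below the filter, averaged 0.0177 RPKM in CD25, 0.416 in ISP and 0.0116 in DP cells. Tbx21 (T-bet), a factor of NK and effector T cells, averaged 0.408, 2.77 and 0.371 RPKM. Klra8 was at 0 in every library. Klrb1c and Tbx21 were chosen after their values were seen. The labels describe the ISP gate by CD4 and CD8 alone, and whether other lymphocytes were part of the result was not tested. Cells of the γδ lineage, mast cells and myeloid cells gave other courses. Markers of γδ cells summed to 38.7–49.1, 114–140.2 and 215–298 RPKM in the 3 populations. Mast cell markers, of which only Cpa3 was above the filter, summed to 23.4–28.9 RPKM in CD25, 10.0–30.6 in ISP and 0–1.75 in DP libraries, and myeloid markers to 60.3–88.9, 45.1–92.7 and 30.6–112.

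Receptors for migration held 8 pulses among 22 tested, the most of any list by count, against 0.664% of all tested genes. The shorter list of NK and innate lymphoid markers held 5 among 12. Pulses of the migration list included Ccr8, Ccr2, Ccr7, Cxcr3, Itgb7, S1pr1 and Klf2. Klf2, the factor that drives thymic exit genes, was at 2.95, 3.55, 5.71 and 5.16 RPKM in CD25, 13.2, 13.5, 13.1 and 16.0 in ISP and 4.03, 5.36, 2.90 and 1.10 in DP cells. S1pr1, the exit receptor, gave 1.28–2.39, 5.03–6.85 and 0.188–0.972, and Ccr7, a receptor for lymph node chemokines, gave 3.46, 2.83, 2.88 and 2.75, then 7.00, 9.25, 8.60 and 22.5, then 2.12, 3.36, 3.80 and 3.09. In ISP cells the KO 2 value of Ccr7 stood above the other 3.

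Enzymes of amino acid supply also pulsed. Asns, asparagine synthetase, was at 11.7, 12.2, 11.9 and 13.9 RPKM in CD25, 72.2, 70.8, 79.2 and 56.2 in ISP and 12.2, 8.20, 13.3 and 12.5 in DP cells, with steps of 2.39 and -2.50 (adjusted p = 6.35e-09 and 2.91e-09) and an end -0.12 from the start (95% interval -0.37 to 0.14). Of 18 tested genes of serine and one-carbon metabolism 15 were called higher at ISP and 16 lower after it. Over all tested genes these shares were 33.1% and 35%. In this list 3 were pulses (Asns, Psat1 and Mthfd2), against 0.664% of all tested genes, 5 had a net fall and 1 a net rise. Psat1, of serine synthesis, was at 54.8–60.5, 116–127 and 27.1–40.4 RPKM and Mthfd2, of mitochondrial folate metabolism, at 40.7–44.2, 75.9–92.6 and 24.3–38.0. Shmt2, mitochondrial serine hydroxymethyltransferase, rose from 112, 129, 118 and 119 to 273, 287, 302 and 262 and ended below its start at 48.6, 40.7, 82.1 and 72.9 RPKM.

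The RUNX motif TGTGGT was in 16 of the 57 matched windows of pulse genes (28.1%), against 14.8% of dip genes, 12.9% of all tested genes and 16.9% of all windows. Stretches of 3 pulse promoters are shown with the motif on either strand in capitals, for Gimap4 (chr6:48684398-48684477, plus strand), Ncr1 (chr7:4337504-4337583, plus strand) and Klrk1, the receptor NKG2D (chr6:129623949-129624028, minus strand):
Gimap4: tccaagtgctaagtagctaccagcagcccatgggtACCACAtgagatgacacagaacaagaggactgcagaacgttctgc
Ncr1: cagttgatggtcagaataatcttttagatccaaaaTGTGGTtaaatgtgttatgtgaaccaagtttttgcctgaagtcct
Klrk1: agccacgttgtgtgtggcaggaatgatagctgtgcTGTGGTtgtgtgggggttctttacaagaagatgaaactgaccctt
Klrk1 was at 0.309–0.771 RPKM in CD25, 4.33–7.00 in ISP and 0.0629–0.413 in DP libraries. Like Ncr1, it passed the filter only through ISP.

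**Figure D5:**
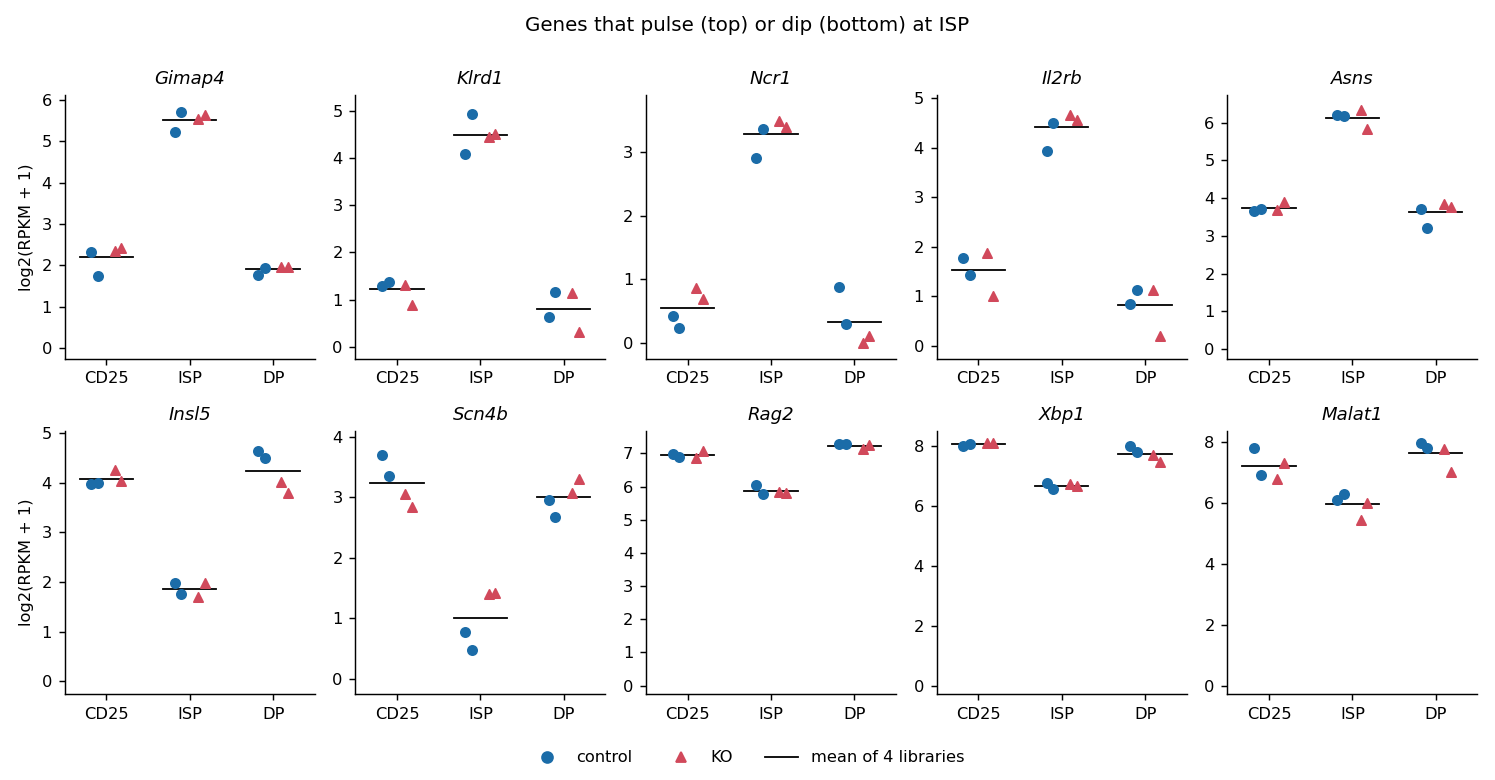
log2(RPKM + 1) in the 12 libraries, with circles for control, triangles for KO and a line at the mean of the 4 log values of each population. In the upper row every ISP library of the 5 genes lies above every CD25 and DP library, and in the lower row below.

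Effector genes with higher levels in CD25 cells also rose to ISP but ended below their start. Of 18 tested effector genes 12 were called higher at ISP, 15 lower from ISP to DP, and 10 had a net fall. Over all tested genes these shares were 33.1%, 35% and 10.6%. Gzma, granzyme A, was at 362, 376, 495 and 449 RPKM in CD25, 820.1, 938, 850.4 and 910.0 in ISP and 103, 93.2, 146 and 187 in DP cells. Gzmb, granzyme B, gave 5.80, 6.01, 13.7 and 7.195, then 23.9, 27.4, 55.0 and 41.5, then 1.01, 1.39, 2.92 and 0.149. The calcium-binding proteins S100a4 and S100a6 took the same course, S100a4 with 10.9, 8.10, 5.70 and 5.81, then 22.9, 37.3, 28.9 and 20.9, then 1.33, 1.15, 2.25 and 1.69, and S100a6 with 8.85–10.7, 29.5–50.6 and 1.71–3.72 RPKM. Ms4a4b, a membrane protein of activated T cells, was at 18.9–32.2, 56.3–80.8 and 6.31–8.92. The adaptor chains Tyrobp and Fcer1g, which NK receptors use, followed: Tyrobp was at 25.4, 30.5, 31.8 and 28.5, then 73.4, 105, 92.9 and 92.8, then 6.38, 5.06, 14.9 and 16.0, and Fcer1g at 15.8–20.1, 39.1–65.9 and 2.86–12.9 RPKM. Cd7, an early lymphoid surface receptor, and the chemokine receptor Cxcr6 did so too, with 8.17–11.7, 41.7–58.7 and 0.506–2.83 RPKM for Cd7 and 2.32–4.93, 16.3–33.2 and 0.333–1.41 for Cxcr6. Nkg7, a granule protein, and Plac8 did not rise first: Nkg7 fell from 201–250.2 through 110.2–156 to 11.8–14.6, and Plac8 from 423, 408, 524 and 480.1 through 162, 191, 350.0 and 375 to 12.0, 7.76, 23.8 and 22.7 RPKM. Gzma, Nkg7, Tyrobp and Fcer1g are themselves among the listed NK markers, so the sum of all 16 is no separate measure here. The part of NK cells in this group was not tested.

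Dip genes were fewer and of mixed function. Insl5, a relaxin family peptide, was at 14.7, 15.1, 18.2 and 15.4 RPKM in CD25, 2.98, 2.40, 2.24 and 2.97 in ISP and 24.1, 21.7, 15.2 and 13.0 in DP cells, with steps of -2.21 and 2.38 (adjusted p = 1.49e-09 and 6.71e-10). Scn4b, a sodium channel beta subunit, gave 12.0, 9.24, 7.29 and 6.15, then 0.702, 0.384, 1.65 and 1.66, then 6.78, 5.40, 7.40 and 8.92, and a second such subunit, Scn2b, 6.11–8.99, 0.789–2.37 and 4.59–5.79. Prodh, proline dehydrogenase, was at 22.2–24.3, 3.98–5.82 and 10.5–17.3 RPKM, and Papss2, which makes the sulfate donor PAPS, at 12.2–13.2, 3.83–4.86 and 11.8–14.1. Xbp1, a factor of the unfolded protein response, was at 253, 263, 274 and 271, then 106, 94.6, 105 and 99.99, then 255, 222, 208 and 175. Gbp8, an interferon-inducible GTPase, dipped from 95.1–121 to 37.0–49.6 and stood at 102–151 in DP cells. Il34, a ligand of the CSF1 receptor, and Grifin, a galectin-related protein, regained only part of their level, with 10.8–13.2, 0.922–1.47 and 3.73–6.52 RPKM for Il34 and 28.7–33.9, 4.52–7.63 and 13.0–17.8 for Grifin, and their intervals reached past 1. Baiap3, a protein of vesicle release, ended above its start, with 11.8, 10.9, 12.1 and 12.6, then 4.63, 4.54, 3.12 and 2.80, then 37.0, 35.6, 18.8 and 14.3.

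A pair of further dips belongs to lists that check the samples. Malat1, a long RNA kept in the nucleus, was at 221, 118, 109 and 159 RPKM in CD25, 68.0, 78.2, 42.3 and 62.9 in ISP and 248, 224, 215 and 129 in DP cells. Neat1, another nuclear RNA, did not dip and rose after ISP, from 2.42–2.69 to 5.03–10.0 RPKM. Cldn4, a claudin that is also a marker of thymic epithelium, dipped from 13.9, 29.9, 13.9 and 12.9 to 5.44, 4.26, 5.30 and 3.26 and was at 23.6, 16.2, 17.1 and 13.6 in DP cells. The 11 epithelial markers summed to 130.2–147 RPKM in CD25, 25.8–29.8 in ISP and 38.3–45.5 in DP libraries, while the defining Foxn1 and Psmb11 stayed under 0.1 RPKM on average in each population and Krt14 was at 0 in every library.

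The E-protein E-box, CAGCTG or CACCTG, was in 14 of the 27 matched windows of dip genes (51.9%), against 33.3% of pulse genes, 28.4% of all tested genes and 32.6% of all windows. Stretches are shown for Insl5 (chr4:103027299-103027378, minus strand) and Xbp1 (chr11:5520475-5520554, plus strand), with the E-box on either strand in capitals:
Insl5: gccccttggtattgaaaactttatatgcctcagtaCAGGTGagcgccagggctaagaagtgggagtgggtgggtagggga
Xbp1: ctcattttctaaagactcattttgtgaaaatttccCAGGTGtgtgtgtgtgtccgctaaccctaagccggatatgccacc
Xbp1 was chosen after its values were seen.

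Both genotypes showed the classes. In a fit of the 6 control libraries alone 103 genes were pulses (0.911% of those tested) and 52 dips (0.46%). In the 6 KO libraries alone 81 were pulses (0.717%) and 37 dips (0.327%). They shared 54 pulse genes, 52.4% of the control and 66.7% of the KO list, and 21 dip genes, 40.4% and 56.8%. These 2 fits share no library.

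The size of the end-to-end change differed between the genotypes for 1393 genes (12.3% of those tested; limma interaction test, adjusted p under 0.05), 98 of them by 1 or more on the log2 scale. The difference was more positive in KO for 948 genes and more negative for 445. Of the 24 genes with the largest net changes by the rule 7 were called for it: Cd6 (-0.65), Fas (-0.60), Slc6a19 (-0.58) and Id3 (-0.66) with a smaller rise in KO, and Ifi204 (0.78), Plac8 (0.91) and Myl10 (1.43) with a smaller fall (adjusted p from 0.00363 to 0.0461). Cd8a, Cd8b1, Scin and H19 were not called. The intervals of KO minus control were -0.13 to 0.39 for Cd8a and -0.27 to 0.59 for H19. For Cd4 the interval was -1.31 to -0.20, and the difference missed the threshold after adjustment (adjusted p = 0.0748). Ccnd2 kept more of its level in KO: the difference of changes, KO minus control, was 1.57 (SE 0.19, limma adjusted p = 0.00174), with DP values of 4.39 and 3.40 in control and 15.0 and 17.1 RPKM in KO libraries. Dnmt3b, a de novo DNA methyltransferase, fell from 31.8, 33.4, 37.8 and 36.2 through 6.10, 6.94, 12.9 and 13.7 to 1.08, 1.02, 4.94 and 8.19 RPKM, again less in KO (difference of changes 1.67, SE 0.22, adjusted p = 0.00303). Myc, Mcm6, Rps2 and Shmt1, cytosolic serine hydroxymethyltransferase, had the same sign, with differences of 0.81, 0.53, 0.71 and 0.85 and adjusted p from 0.00144 to 0.0045. Pdlim4, a cytoskeletal LIM protein, rose to ISP in all libraries, to 116, 105, 181 and 154 RPKM, from 23.1, 27.5, 31.3 and 29.6. In DP cells it was back at 20.9 and 20.9 in control and at 130.4 and 186 in KO libraries, so its net rise rests on the KO libraries. Y-linked RNA differed between the libraries of these groups. Ddx3y was at 19.8, 10.8, 7.61 and 18.7 RPKM in CD25, 7.28, 29.7, 0 and 0.0979 in ISP and 15.7, 56.3, 0 and 0.0907 in DP cells, and Xist, expressed from the inactive X chromosome, at 16.6, 17.3, 17.5 and 9.79, then 20.5, 0.766, 21.4 and 20.8, then 22.5, 0.914, 25.5 and 25.6. The names under which 4 of the 8 stimulated libraries were sequenced give the other genotype, and with groups by these names 3477 genes were called. Reads of Gh followed the titles instead. By title, Ddx3y was at most 0.0979 RPKM in the stimulated KO libraries, against 7.61 and 18.7 in the CD25 KO libraries. For that reason the share of female and male embryos in a library and the genotype effect on the change cannot be told apart. The number of genes called for this difference lay between 608 (without DP KO 2) and 1851 (without DP KO 1) when 1 library was left out. It fell by more than 1.5 times also without CD25 KO 1 (621), DP control 1 (662), DP control 2 (693), CD25 KO 2 (744) or CD25 control 2 (842), and was 0 without the 4 libraries whose names give another population, which leaves 1 DP library per genotype.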

How the data were processed

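RNA of sorted mouse fetal thymocytes was measured in 12 libraries, of which 4 CD25 and 4 DP libraries were compared and 4 ISP libraries placed between them. The authors deposited RPKM values for 24421 gene names. BWA and GRCm38 are named in the submitters' processing notes. Which counter, strand setting and annotation were used is not given in the sources used here, so reads of overlapping, antisense or near-identical genes may be split or shared between them. RPKM steps gave whole reads for 169595 of 169595 values above 0 (100% within 0.02 reads), with 9658321 to 14228954 reads per library.

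From these, log2(RPKM + 1) was computed for the 11303 genes that reached 1 RPKM in 2 or more libraries. It was fitted with limma 3.58.1 (R 4.3.3, intensity trend, 6 groups of population and genotype, 6 residual degrees of freedom), with contrasts averaged over genotypes and Benjamini-Hochberg adjustment over all 11303 genes. Calls need an adjusted p under 0.05, net changes also a difference of at least 1, and pulses and dips 2 called steps of at least 1 in opposite directions. The test script was checked on simulated data. Replicate numbers were not used to pair libraries, since the labels do not say what they mark. Alternatives changed the pseudocount, filter, scale, model, threshold, grouping and libraries.

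Named genes were the 12 with the largest changes per class, without overlap of libraries and with at least 5 RPKM in a population, the 8 per direction with the largest genotype difference, the 5 with the smallest p per list, and 9 genes of the sorts and the design. The text names a part of these, and 31 genes outside the rule, chosen after their values were seen. Members and lists were chosen with earlier results of these data known. Predicted genes and names in date form (25) were not named. Promoter windows were those of RefSeq on GRCm38.p6, matched by symbol. Some genes that met the rule are not reported here.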

Additional observations from a re-analysis of the deposited data

Results flagged for a closer look

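In the following genes the end-to-end change differed between genotypes (limma interaction test, KO change minus control change on the log2(RPKM + 1) scale). With 2 libraries per genotype and population, each value rests on 4 groups of 2.

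The change was more positive in KO for Acoxl (2.94), Wfdc17 (2.87), Pdlim4 (2.57), Gh (2.28), Hist2h4 (2.14), Fam212a (1.87), Snora64 (1.82) and Snord47 (1.75), the 8 largest of that sign. Acoxl, an acyl-CoA oxidase-like gene, was at 0.432 and 0.401 RPKM in DP control and 7.45 and 10.5 in DP KO libraries, against 0.468–0.691 in CD25 libraries. Wfdc17, a secreted protease inhibitor, was at 0.405 and 0.873 in DP control and 2.57 and 7.85 in DP KO libraries.

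It was more negative in KO for Eif2s3y (-5.27), Ddx3y (-4.62), Uty (-3.34) and Kdm5d (-3.13), all on the Y chromosome. Eif2s3y was at 33.9, 17.8, 13.9 and 38.8 RPKM in CD25, 10.9, 51.0, 0.129 and 0.171 in ISP and 21.9, 88.7, 0 and 0.238 in DP libraries. Its value near 0 in all 4 anti-CD3 KO libraries sets these apart from the CD25 KO libraries. Klf2 (-1.58), Tdrp (-1.43), Snord104 (-1.38) and Podxl2 (-1.27) were the next largest. Klf2 was at 4.03 and 5.36 in DP control and 2.90 and 1.10 RPKM in DP KO libraries.

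Among other genes the report names, the difference was 1.67 for Dnmt3b, 1.57 for Ccnd2, 1.43 for Myl10, 1.19 for Tyrobp, 1.17 for Fcer1g, 1.02 for S100a4 and -1.21 for Baiap3.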

How the results depend on the processing

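For net rises, net falls, pulses and dips the additive fits, the replicate block, values scaled to recovered library size, no filter and fits of 1 genotype gave counts within 1.5 times of those reported. Leaving out 1 library in turn gave 823 to 848 net rises, 1182 to 1216 net falls, 71 to 82 pulses, 34 to 45 dips and 608 to 1851 genes with a genotype difference. A pseudocount of 0.25 gave 72 dips and voom on the recovered reads 99, and voom called 1167 net rises and 1647 net falls. A log2 threshold of 0.5 gave 2282 net rises, 2680 net falls, 310 pulses and 244 dips. The genotype difference was called for 860 genes without the filter, where more genes were tested, and for 0 without the 4 libraries whose names give another population, where fewer libraries were left (limma; voom on all 12 libraries called 1470, and 3209 had an unadjusted p under 0.05 in the reported fit). With groups by library name there were 505 net rises, 710 net falls, 0 pulses, 0 dips and 3477 genotype differences. The cause of the other changes was not tested. Numbers that share a genotype correlated in their deviations from group means by -0.029 to 0.125 across genes, above 0.1 only for the ISP and DP controls, whose Xist and Ddx3y levels also went by number, and the labels do not say what a number marks, so numbers were not used as pairs. The replicate block gave 836 net rises, 1193 net falls, 75 pulses, 39 dips and 1395 genotype differences.

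The DP minus CD25 difference reversed its sign for these genes. With groups by library name it was 1.41 for Gimap4, 1.36 for Klrd1, 1.36 for Ccl5, 1.12 for Il2rb, 1.27 for Ncr1, 1.07 for Klrc1, 0.73 for Ccr8, 1.28 for Asns, 0.83 for Klrk1, -0.98 for Insl5, -0.60 for Cldn4, -0.16 for Baiap3, -0.47 for Gbp8, 0.59 for Cxcr6, 0.13 for Cd7, 0.23 for Gzmb, 0.23 for S100a6, 0.032 for S100a4, 0.0079 for Tyrobp, 0.042 for Fcer1g, 0.18 for Shmt2, -0.19 for Cd3d, -0.37 for Rag2, 0.14 for S1pr1, 0.76 for Cxcr3, 0.16 for Psat1, 0.32 for Mthfd2, 0.37 for Ccr2, 0.57 for Tbx21 and -0.15 for Cd1d1. In control libraries alone it was -0.23 for Acoxl, -0.61 for Wfdc17, -0.26 for Pdlim4, 0.82 for Eif2s3y, 0.98 for Ddx3y, 0.56 for Uty, 0.74 for Kdm5d, 0.42 for Klf2 and 0.026 for Snord104. In KO libraries alone it was -0.071 for Gbp8 and 0.91 for Xist. Without the libraries whose names give another population it was 0.65 for Xist. Low values limit precision: at these depths genes near 1 RPKM rest on few reads.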
